A study of Homo sapiens with 4 samples.

Results

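The genes described here are ERBB2 with 4 of its neighbours in chromosome band 17q12 (STARD3, PGAP3, MIEN1 and GRB7), 2 related receptors (EGFR and ERBB3) and 3 ligands of the EGF family (AREG, EREG and HBEGF). They were taken by symbol, whatever their values, and all 10 were found among the 40205 rows of the count table. The libraries are labelled as SKOV3, a human ovarian cancer line known for extra copies of ERBB2. Of the 4 libraries, 2 are controls and 2 were made after 24 h with 20(S)-Rg3, a saponin of ginseng, at 80 µg/mL. All cells were grown in RPMI medium with fetal bovine serum, the labels call the RNA of each library pooled, and no vehicle is named for the controls. The labels name no separate cultures behind the libraries, so the p-values below measure library-to-library spread only, part or all of which may be technical.

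The ERBB receptors are membrane tyrosine kinases that signal as pairs. EGFR is opened by ligands such as amphiregulin (AREG), epiregulin (EREG) and heparin-binding EGF (HBEGF), which are made as membrane-bound precursors and cut loose by ADAM proteases. ERBB2 (HER2) binds no known ligand and acts as the partner of the other receptors, while ERBB3 has a weak kinase of its own and passes signals on to PI3-kinase. In HER2-amplified tumours the copied stretch of 17q12 usually carries STARD3, PGAP3, MIEN1 and GRB7 along with ERBB2.

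Promoter sequences are shown first because the RefSeq starts used here for 2 of the 17q12 genes lie back to back. RefSeq windows (build GRCh38.p14, whereas the counts were made on GRCh37) were matched by symbol for 8 of the 10 genes, and GRB7 and ERBB3 had none. Each window runs from 250 bases before a gene's start to 50 after it. Any start of ERBB2 other than that of its window was not looked at. By these windows PGAP3, on the minus strand, and ERBB2, on the plus strand, start 36 bases apart in opposite directions. Their windows share 136 bases. The stretch between those starts, with 30 bases on each side, lies at chr17:39688028-39688123 and is read here on the plus strand. The STARD3 stretch is the 120 bases before its start (chr17:39637024-39637143, plus strand), and the MIEN1 stretch is 90 bases before and 30 after its start (chr17:39730503-39730622, minus strand). Capitals mark CCGGAAG, 1 form of the sequence recognised by ETS factors, on either strand.
PGAP3-ERBB2: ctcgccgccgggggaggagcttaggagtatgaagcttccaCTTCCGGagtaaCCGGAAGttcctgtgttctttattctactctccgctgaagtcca
STARD3: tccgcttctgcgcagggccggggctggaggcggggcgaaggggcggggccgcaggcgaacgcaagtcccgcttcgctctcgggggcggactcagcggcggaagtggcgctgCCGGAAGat
MIEN1: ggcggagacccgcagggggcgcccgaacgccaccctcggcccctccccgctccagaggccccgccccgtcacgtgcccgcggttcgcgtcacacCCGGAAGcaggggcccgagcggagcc

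All 4 of the 17q12 windows held CCGGAAG, and none of the 5 windows of the receptors and ligands did (EGFR has 2 windows). Over all 35116 RefSeq windows of 300 bases the share with a match was 10.3%. Shorter forms were not counted, and CGGAAG also stands unmarked in the STARD3 stretch and, on the other strand, in the HBEGF window. PGAP3 and ERBB2 count the same pair of matches, since these lie in the bases they share. The ligand genes AREG and EREG differ from these in having a TATA box close to the start, shown by the 100 bases before each start on the plus strand (chr4:74445036-74445135 and chr4:74365045-74365144), with TATAAA and, in AREG, the cyclic AMP response element TGACGTCA in capitals.
AREG: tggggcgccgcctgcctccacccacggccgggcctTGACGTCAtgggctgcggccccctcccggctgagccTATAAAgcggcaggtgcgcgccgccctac
EREG: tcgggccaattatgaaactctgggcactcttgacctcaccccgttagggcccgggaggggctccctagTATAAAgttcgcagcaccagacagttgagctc
TATAAA was in 11.5% of all windows and TGACGTCA in 1.85%, both strands counted. The second EGFR window also held TATAAA, and the HBEGF window held neither motif. The sterol element TCACNCCAC, the letters bound by SREBP in several cholesterol genes, was in 1.13% of all windows and in none of the 9 windows of these genes. A match is a run of letters and does not show that a factor binds there.

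Depth ran from 24482846 to 30132517 counts per library, and the 10 genes together took 0.0179% to 0.0217% of them. The label was checked on fixed marker genes. The simple-epithelium keratins KRT7, KRT8 and KRT18 had 47959 or more counts in every library, whereas KRT19 had 2 counts in control 1 and 0 in the other libraries, and CD24 had 0 in all. SKOV3 is known to have lost both copies of the cell-cycle inhibitor CDKN2A, yet the CDKN2A row held 1692 and 1733 counts in the controls and 2151 and 1778 with Rg3, which goes against the label. The cells are therefore called by their label only, and the name HER2 amplicon is not used for the 17q12 genes. No library of a line with a normal ERBB2 copy number was analysed here, so whether extra copies show in these RNA levels was not tested. Of 10 markers of other cell types, 2 (CD3E and ALB) were at 0 in every library. The endothelial cadherin CDH5 had 389 to 515 counts, the globin HBB had 79 counts in control 2 and 0 elsewhere. The muscle filament gene DES had 24 and 22 counts in the controls and 10 and 6 with Rg3 (log2 fold change −1.62, SE 0.44, edgeR adjusted p = 0.803). The summed level of the 10 was 19.4 and 24.2 CPM in the controls and 16.8 and 16.6 CPM with Rg3. CPM are counts scaled to library size by edgeR's TMM. Without CDH5 the sum was 1.46 and 4.69 CPM in the controls and 0.616 and 0.456 CPM with Rg3, and the part of these markers in the results below was not tested.

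ERBB2 had a group mean with Rg3 close to that of the controls, but its Rg3 libraries lay on opposite sides of both controls. The mean level of GRB7, an adaptor gene in the same segment beyond MIEN1, was 0.508 of that in the controls. PGAP3 and MIEN1 were lower to a smaller degree, and STARD3, EGFR and HBEGF had group means close to the controls. None of the 8 genes with enough counts to test passed the adjusted threshold of 0.05 in edgeR's quasi-likelihood test, which called 5 of 16323 genes higher (0.0306%) and 0 lower (0%). At an unadjusted p under 0.05, 1 of the 8 was lower (GRB7) and 0 were higher, against 2.9% and 1.83% of all genes tested. DESeq2 also called 0 of the 8, against 0.221% of genes higher and 0.11% lower. Levels in CPM are set against each other between libraries, not between genes, because transcript lengths were not used here.

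**Figure D1:**
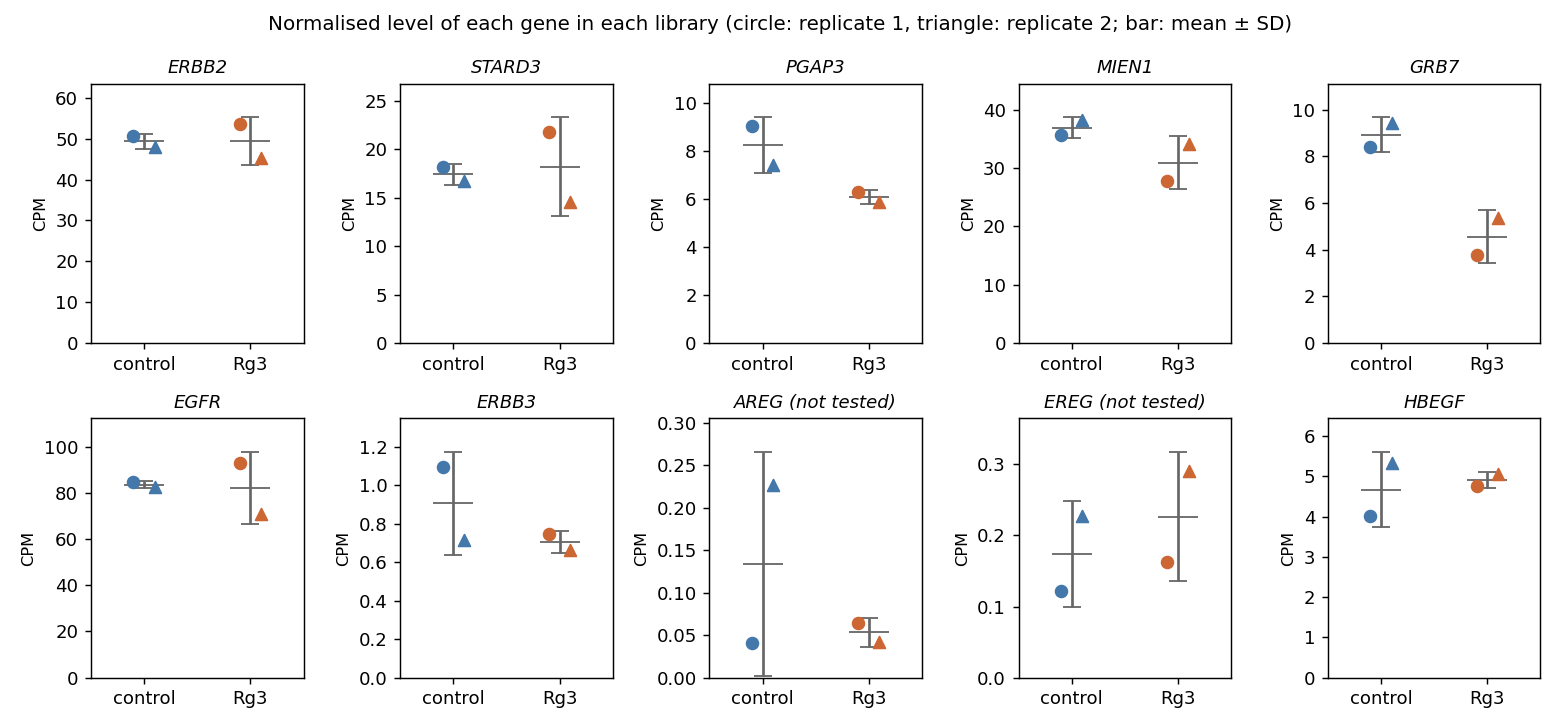
Level of each of the 10 genes in CPM (vertical axis, from 0, with its own scale per gene) in control and Rg3 libraries. Circles are replicate 1, triangles replicate 2, and bars the mean ± SD (n = 2 per group). In GRB7, PGAP3 and MIEN1 both Rg3 libraries lie under both controls, an order that 17% of all genes tested had.

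GRB7 encodes an adaptor whose SH2 domain binds phosphorylated ERBB2 and other receptors. Its counts were 207 and 250 in the controls and 116 and 129 in the Rg3 libraries. In CPM these were 8.40 and 9.45 in the controls and 3.76 and 5.35 with Rg3, so the groups did not overlap. Both Rg3 libraries were below both controls in 17% of all genes tested. The group means were 8.92 ± 0.747 CPM in the controls and 4.56 ± 1.12 CPM with Rg3, where each ± is an SD over 2 libraries. The fitted log2 fold change was −0.98 (SE 0.24, 95% interval −1.53 to −0.42), which corresponds to 0.508 of the control level. The edgeR unadjusted p was 0.003813 and its adjusted p 0.629, so GRB7 was not called.

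That call depends on the fit, while GRB7 was lower with Rg3 in each fit tried. Leaving out Rg3 replicate 1 gave an edgeR adjusted p of 0.0454 (log2 fold change −0.73), and leaving out Rg3 replicate 2 gave 0.00738 (−1.24). Those fits called 2.77% and 0.879% of all genes lower, respectively. It was 0.510 without control 1 (−1.05) and 1 without control 2 (−0.88). In such fits a group of 1 library is assumed to vary like the other group, which does not hold over all genes tested. Scatter between replicates, as chi-square per degree of freedom, was 9.89 for the controls and 48.8 for the Rg3 libraries. Without an Rg3 library the spread came from the controls alone, so the adjusted p values of those fits may be too small. With no filter on low counts the adjusted p was 0.00978, where 0.483% of genes were called lower, and with DESeq2 it was 0.209.

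ERBB2 encodes the receptor HER2. Its counts were 1247 and 1272 in the controls and 1649 and 1089 with Rg3. After scaling, the controls were at 50.6 and 48.1 CPM and the Rg3 libraries at 53.5 and 45.2 CPM, so that the Rg3 libraries lay on opposite sides of both controls. The group means were 49.3 ± 1.76 and 49.3 ± 5.88 CPM. The log2 fold change was 0.00061 (SE 0.15), with a 95% interval from −0.34 to 0.34, or 0.791 to 1.27 of the control level. Changes within that interval cannot be told from none with these libraries. Larger changes can be missed as well in the test over all genes, since GRB7 at −0.98 was not called. ERBB2 and MIEN1 overlap at their ends in RefSeq, and the strand setting of the counting is not given in the sources used here, so reads in the overlap may stand under either gene. The row of MIR4728, a microRNA inside ERBB2, held 0 to 2 counts.

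STARD3 encodes a sterol-binding protein of late endosomes. It was at 18.2 and 16.7 CPM in the controls, 21.8 CPM in Rg3 replicate 1 and 14.6 CPM in Rg3 replicate 2. The Rg3 libraries again stood on either side of both controls, and the log2 fold change was 0.065 (SE 0.21, 95% interval −0.43 to 0.56). Leaving out Rg3 replicate 1 gave −0.25 and leaving out Rg3 replicate 2 gave 0.32, so no direction can be given.

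PGAP3 encodes an enzyme that remodels the lipid of GPI anchors. It was at 9.04 and 7.41 CPM in the controls and at 6.26 and 5.85 CPM with Rg3. Both Rg3 libraries were lower than both controls, yet the controls differed from each other by more than the Rg3 libraries did. The log2 fold change was −0.44 (SE 0.20, 95% interval −0.92 to 0.037, edgeR adjusted p = 0.999).

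MIEN1 encodes a small membrane-anchored protein linked to cell migration. It was at 35.7 and 38.1 CPM in the controls, 27.7 CPM in Rg3 replicate 1 and 34.1 CPM in Rg3 replicate 2. The groups did not overlap, but Rg3 replicate 2 was close to control 1. The log2 fold change was −0.26 (SE 0.16, 95% interval −0.62 to 0.11, edgeR adjusted p = 0.999), with −0.11 when Rg3 replicate 1 was left out and −0.41 when Rg3 replicate 2 was.

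Both Rg3 libraries were below both controls for 3 of the 5 genes of 17q12 (PGAP3, MIEN1 and GRB7) and for none of the 3 tested receptors and ligands. Among all genes tested, 17% had this order and 15.3% had both Rg3 libraries above both controls. The median log2 fold change was −0.26 over the 5 genes of 17q12 and −0.028 over EGFR, ERBB3 and HBEGF, beside 0.014 over all genes tested. Leaving out Rg3 replicate 1 brought the medians together, at −0.25 and −0.23, and leaving out Rg3 replicate 2 moved them apart, to −0.39 and 0.028. These are descriptions of 5 and 3 genes, with no test of the difference between them.

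**Figure D2:**
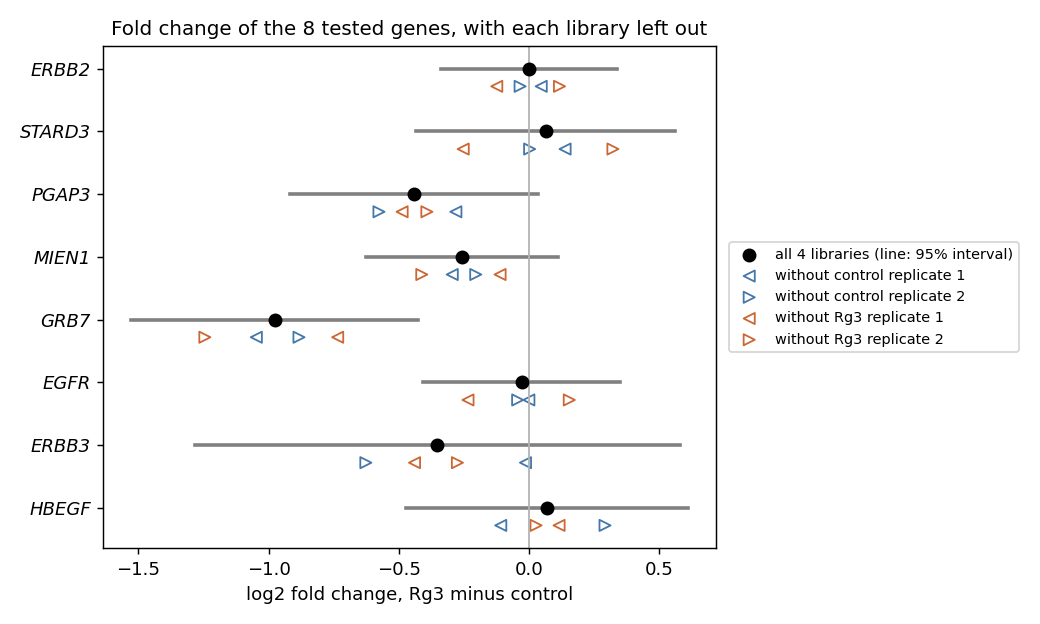
Log2 fold change (Rg3 minus control, horizontal axis) of the 8 tested genes. Black points use all 4 libraries with 95% intervals, and open triangles leave out 1 library each; only the interval of GRB7 lies wholly below 0, and it is not corrected for the number of genes tested.

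Of the receptors, EGFR had 2084 and 2183 counts in the controls and 2866 and 1708 with Rg3. It was at 84.5 and 82.5 CPM in the controls, 93.0 CPM in Rg3 replicate 1 and 70.9 CPM in Rg3 replicate 2. The controls agreed closely and the Rg3 libraries stood apart on either side of them. The log2 fold change was −0.028 (SE 0.16, 95% interval −0.41 to 0.35), and it moved to 0.16 when Rg3 replicate 2 was left out and to −0.23 when replicate 1 was. The row of EGFR-AS1, an RNA antisense to EGFR, held 0 counts in all libraries.

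ERBB3, the receptor with the weak kinase, had 27 and 19 counts in the controls and 23 and 16 with Rg3. At these counts the levels were 1.10, 0.718, 0.746 and 0.664 CPM in the same order, and the groups overlapped. The log2 fold change was −0.35 (SE 0.40) and its 95% interval, −1.28 to 0.58, takes in both a fall to 0.411 and a rise to 1.49 of the control level. ERBB4, the remaining receptor of the family, had 9 and 3 counts in the controls and 4 and 6 with Rg3 and was not tested.

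Among the ligands, HBEGF had 99 and 141 counts in the controls and 147 and 122 with Rg3. Its levels were 4.02 and 5.33 CPM in the controls and 4.77 and 5.06 CPM with Rg3, so the Rg3 libraries lay between the controls. The log2 fold change was 0.070 (SE 0.23, 95% interval −0.47 to 0.61), and its sign turned without control 1 (−0.11).

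AREG and EREG were close to the limit of detection and were not tested. AREG had 1 and 6 counts in the controls and 2 and 1 with Rg3, and EREG had 3 and 6, then 5 and 7. AREGB, a second row for amphiregulin in annotations of that age, held 1 count in Rg3 replicate 2 and 0 in the other libraries, so adding it to AREG gives 1, 6, 2 and 2. A count of 0 allows up to 3 counts, or 0.0973 to 0.124 CPM in these libraries, counting error only. No fold change is given for either gene, since the filter on low counts removed both.

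Other EGF-family ligands were read from a list that takes every member whatever its values. Of 8, 6 were tested, 3 were above 0 and 3 below, 0 were called, and the median log2 fold change was 0.0040. NRG4, a ligand of ERBB4, had the most counts of the 8 rows, at 622 and 660 in the controls and 670 and 627 with Rg3. TGFA, a ligand of EGFR, had 92 and 103 counts in the controls, 140 in Rg3 replicate 1 and 67 in Rg3 replicate 2. NRG1 had 25 and 18, then 40 and 21, and EPGN had 30 and 16, then 45 and 17. NRG2, with 12 and 23, then 13 and 10, had the lowest fold change of the list at −0.70 on the log2 scale. EGF had 23 to 28 counts per library, BTC 5 to 14 and NRG3 none.

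ERBB2, STARD3 and EGFR shared an order over the libraries: Rg3 replicate 1 above both controls and Rg3 replicate 2 below both. Of all genes tested 15.9% had it, and of the protein-coding genes tested 18.8%. The difference between the Rg3 libraries, replicate 1 minus replicate 2 in log2 CPM, was 0.24 for ERBB2, 0.58 for STARD3 and 0.39 for EGFR, while GRB7 and MIEN1 went the other way with −0.51 and −0.30. The controls differed by 0.073, 0.13 and 0.034 for the first 3 and by −0.17 and −0.098 for the others. Other receptor tyrosine kinases had the order of ERBB2 in 7 of 17 tested genes, with a median difference of 0.37 between the Rg3 libraries, against −0.013 over all genes tested. The further genes of 17q12 to 17q21 described below had it in 11 of 29 tested, with a median difference of 0.19. What separates the Rg3 libraries was not tested.

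By the root mean square difference of centred log2 CPM over the 4 libraries, EGFR was 522nd nearest to ERBB2 among 8763 genes with a mean of at least 10 CPM, at 0.057. TBC1D5, NF1 and FBXO18 were the nearest, at 0.0051, 0.0052 and 0.0059. STARD3 ranked 2735 (0.12) and MIEN1 ranked 7057 (0.24). Over all 16322 other tested genes PGAP3 ranked 9978 (0.23) and GRB7 ranked 15619 (0.56). The profile of ERBB2 over these 4 libraries was thus nearer to that of EGFR, on another chromosome, than to those of the genes beside it. With 4 libraries, many genes lie close to any flat profile.

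Ratios between genes within a library do not depend on scaling. They use the same counts as the fold changes, and the difference between the genes was not tested. In log2 units the ratio of GRB7 to ERBB2 was −2.59 and −2.35 in the controls, −3.83 in Rg3 replicate 1 and −3.08 in Rg3 replicate 2. PGAP3 to ERBB2 was −2.48 and −2.70 in the controls and −3.09 and −2.95 with Rg3. The ratio of MIEN1 to ERBB2 was −0.50 and −0.33, then −0.95 and −0.41, which overlapped, as did that of STARD3 to ERBB2 (−1.47 and −1.53, then −1.30 and −1.63). The summed level of the 5 genes relative to EGFR was 0.53 and 0.54 in the controls, 0.28 in Rg3 replicate 1 and 0.57 in Rg3 replicate 2. Relative to ERBB3 that sum was 6.80 and 7.38, then 7.24 and 7.31. These ratios carry the unequal lengths of the genes, so only their differences between libraries are read.

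The wider stretch of 17q12 to 17q21 was read from a list of 42 further genes ordered by RefSeq. Of these 29 were tested, 16 above 0 and 13 below, with a median log2 fold change of 0.015 and a range from −0.32 to 0.25, and 0 were called. GRB7 (−0.98, SE 0.24) and PGAP3 (−0.44, SE 0.20) lay outside that range, though the 95% interval of PGAP3 takes in values inside it. The other genes inside the segment were close to silent. TCAP and PNMT, between STARD3 and PGAP3, had 0 to 9 and 1 to 5 counts. PPP1R1B, before STARD3, had 0 to 4, and IKZF3 and ZPBP2, after GRB7, had 0 or 1.

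Farther out, the kinase gene CDK12 had 2681 to 3914 counts and a log2 fold change of 0.052, and the proteasome subunit gene PSMD3 had 4052 to 6285 counts and 0.098. MED1, a Mediator subunit, was at 69.8 and 73.3 CPM in the controls and 75.4 and 75.8 CPM with Rg3. CDC6, a replication licensing factor, was at 143 and 156 CPM, then 160 and 171 CPM. The thyroid hormone receptor gene THRA was at 38.5 and 36.5 CPM in the controls and 31.3 and 28.9 CPM with Rg3 (log2 fold change −0.32, SE 0.14). TNS4, a tensin, had the lowest value of the list at −0.32 (SE 0.15). Each had an edgeR adjusted p of 0.999.

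**Figure D3:**
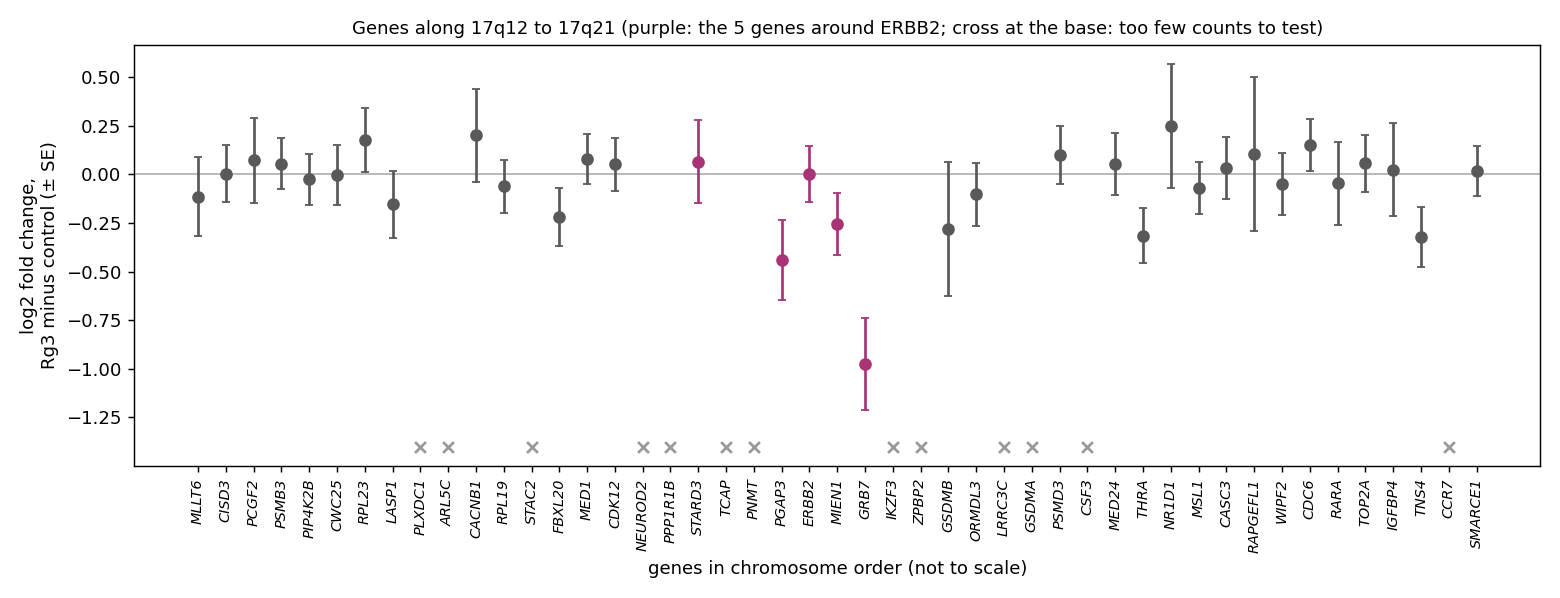
Log2 fold change (Rg3 minus control, ± SE, vertical axis) of 47 genes in their order along 17q12 to 17q21, not to scale. Purple points are the 5 genes around ERBB2, and crosses mark genes with too few counts to test; GRB7 at −0.98 is the lowest point, and its neighbours beyond the segment lie between −0.32 and 0.25.

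Other receptor tyrosine kinases gave a comparison for EGFR and ERBB3. Of 23 listed, 17 were tested, 11 above 0 and 6 below, with a median log2 fold change of 0.092 and 0 called. For this list and those below, 52.5% of all genes tested and 56.4% of the protein-coding genes tested were above 0. The median over the protein-coding genes was 0.030. MET, the receptor of hepatocyte growth factor, had 2886 and 3326 counts in the controls and 3697 and 3348 with Rg3. IGF1R had 3406 and 3098, then 6028 and 2689, which again places Rg3 replicate 1 above and Rg3 replicate 2 below the controls. ROR2, a Wnt receptor, was lowest, at 3.77 and 3.33 CPM in the controls and 2.43 and 2.36 CPM with Rg3 (log2 fold change −0.56, SE 0.24). The collagen receptor DDR1 was at 30.4 and 28.3 CPM, then 27.7 and 20.9 CPM.

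Steps before and after the receptors were read from further lists, with 0 genes called in any of them. Of 7 genes of ligand shedding, 4 were above 0 and 3 below, with a median of 0.028. The proteases ADAM10 (43.8 and 46.8 CPM, then 49.0 and 54.9 CPM) and ADAM17 (32.1 and 28.9 CPM, then 35.0 and 34.3 CPM) had both Rg3 libraries above both controls. They are named because of this order, which 15.3% of all genes tested had. Of 26 adaptor, RAS, RAF and PI3-kinase genes, 16 were above 0 and 10 below, with a median of 0.033. PIK3R3, a regulatory subunit of PI3-kinase, was at 16.8 and 18.7 CPM in the controls and 24.3 and 23.3 CPM with Rg3 (log2 fold change 0.42, SE 0.15, edgeR adjusted p = 0.999). PIK3CA, a catalytic subunit, was at 10.8 and 12.6 CPM, then 13.7 and 13.8 CPM.

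Of 18 tested negative regulators of the pathway, 13 were above 0 and 5 below, with a median of 0.10. Among all protein-coding genes tested 56.4% were above 0, and the difference from that share was not tested. DUSP5, a phosphatase that acts on ERK, was at 3.85 and 3.71 CPM in the controls, 8.11 CPM in Rg3 replicate 1 and 4.77 CPM in Rg3 replicate 2 (log2 fold change 0.78, SE 0.29, edgeR adjusted p = 0.999). PTPN1, a tyrosine phosphatase that acts on receptors, had a log2 fold change of 0.13. The 8 genes that respond to ERK had 4 above 0 and 4 below, with a median of 0.081, and Rg3 replicate 1 minus replicate 2 had a median of 0.73 in log2 CPM over them. EGR1, with 9 and 66 counts in the controls and 23 and 8 with Rg3, had the lowest value at −1.38.

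Of 6 chaperone genes that serve ERBB2 and other kinases, 5 were above 0, beside 56.4% of the protein-coding genes tested, with a median of 0.077. HSP90AA1, the inducible HSP90, was at 554 and 620 CPM in the controls and 739 and 769 CPM with Rg3 (log2 fold change 0.36, SE 0.14, edgeR adjusted p = 0.999). PTGES3, its co-chaperone p23, had a log2 fold change of 0.18. Of 10 factors reported at the ERBB2 promoter 8 were tested, 4 above 0 and 4 below, with a median of 0.0026. Whether those reports concern the ERBB2 start shown above was not looked at. ELK1 (0.14) and YY1 (0.10) had both Rg3 libraries above both controls, MYB (−0.26) had both below, and TFAP2A and TFAP2C had −0.13 and 0.14. ELK1, YY1 and MYB are named because of these orders, which 15.3% (above) and 17% (below) of all genes tested had.

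**Figure D4:**
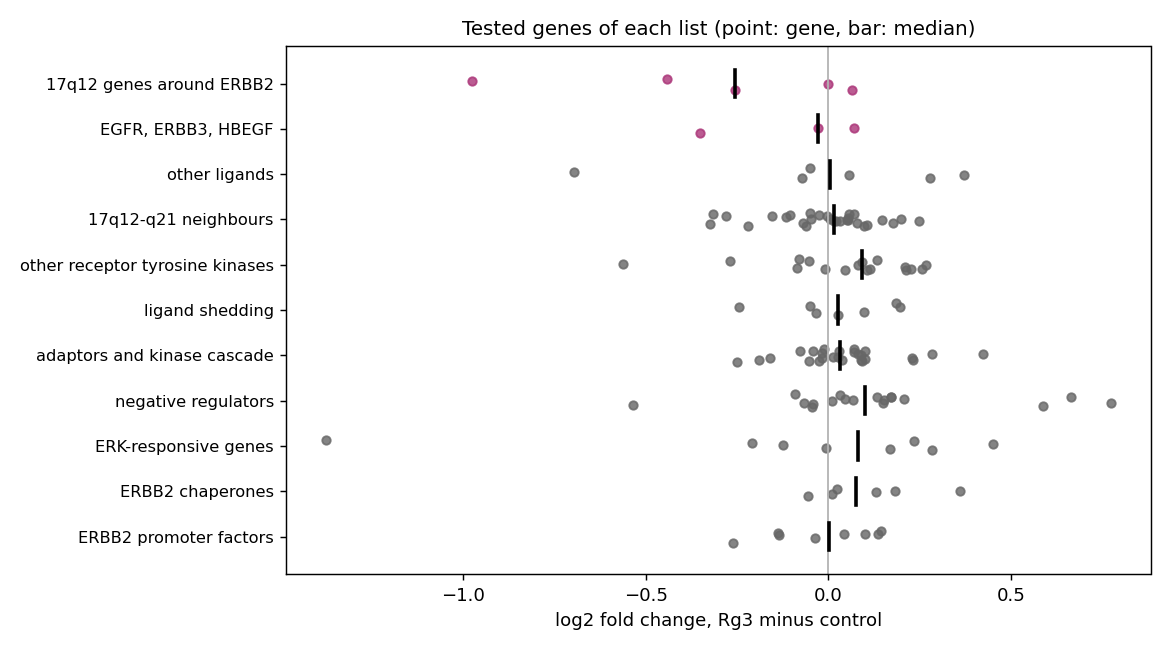
Log2 fold change (Rg3 minus control, horizontal axis) of the tested genes of the lists described here, without the marker lists of the label check. Each point is a gene and each bar the list's median; the medians lie between −0.26 for the 17q12 genes and 0.10 for the negative regulators, and no point was called in edgeR's test over all genes.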

How the data were processed

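The authors deposited 1 table of read counts, a row per gene symbol, with whole numbers and unequal library totals, so the values had not been normalised. Per the submitters' processing notes the build was GRCh37. The aligner, counter, annotation and strand setting are not given in the sources used here, and the labels' protocol gives another maker of sequencer than the series' design text. The main test was run with edgeR 4.0.16 (R 4.3.3). Low genes were removed with filterByExpr (minimum count 10, minimum total 15), which left 16323, libraries were scaled by TMM, and groups were compared by the quasi-likelihood test with Benjamini-Hochberg adjustment over all genes tested, with 2 residual degrees of freedom. Standard errors came from the F statistic. The test was checked on simulated data, with changes larger than those of the 10 genes. That check does not show whether changes of their size could be called. Alternatives were DESeq2 1.42.0, limma 3.58.1 voom, other scalings, no filter, a replicate block and leaving out each library. The genes and lists were chosen with earlier results of these data known. Named genes were the 10 and their copies, ERBB4 and the EGF-family ligands, up to 2 per direction and list with the smallest p (mean of at least 1 CPM and groups that do not overlap), 17q genes next to the 5 by position and level, the 3 nearest to ERBB2 and the fixed markers. PNMT, ZPBP2, MIR4728, EGFR-AS1, CDK12, PSMD3, MET, IGF1R, EGR1, TFAP2A and TFAP2C were named after their values were seen.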

Additional observations from a re-analysis of the deposited data

How the results depend on the processing

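With 2 libraries per group, the 95% interval of the best-measured of these genes, ERBB2, spans 0.791 to 1.27 of the control level, and that of ERBB3 0.411 to 1.49. Genes called higher and lower over the whole table, 5 and 0 in the reported test, were 90 and 124 with no filter, 36 and 18 with DESeq2, 69 and 86 with the replicate block, and 31 to 440 and 18 to 469 without 1 library. Of the 8 tested genes 0 were called in the reported test, and 1 (GRB7) with no filter and with the replicate block (edgeR adjusted p 0.0139, among adjusted p values of 0.00738 to 1 over its alternatives), and 0 to 1 without 1 library. GRB7 stayed below 0 in every alternative, from −1.24 to −0.73, as did PGAP3, MIEN1 and ERBB3. Without 1 library ERBB2 ranged from −0.12 to 0.12, STARD3 from −0.25 to 0.32, EGFR from −0.23 to 0.16 and HBEGF from −0.11 to 0.29. The sign of ERBB2 turned with voom (−0.0013), the replicate block (−0.0042), scaling on protein-coding genes (−0.016), without control 2 (−0.033) and without Rg3 replicate 1 (−0.12). STARD3 turned without Rg3 replicate 1 (−0.25), EGFR without control 1 (0.00031) and without Rg3 replicate 2 (0.16), and HBEGF without control 1 (−0.11). The cause was not tested. The median of the 17q12 genes was −0.39 to −0.20 without 1 library and that of the other genes −0.23 to 0.028. Same-numbered libraries deviated together with r = 0.149 across 16323 genes, but no label ties the numbers to a shared culture or day, so they share only a number. Levels per coding length were not computed, since no protein lengths were used here.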
